A study of Mus musculus with 6 samples.

Results

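Laminins and nephronectin are matrix proteins of basement membranes, and the genes described here were chosen by name: the laminin alpha chains Lama2, Lama3, Lama4 and Lama5, the beta chains Lamb1 and Lamb2, the gamma chain Lamc1, and Npnt, which encodes nephronectin. All 8 were among the 14549 genes measured, and all 8 met the filter on low values. Polyadenylated RNA was sequenced from the epicardial and subepicardial layer dissected off E16.5 mouse hearts. The dKO embryos were Meis1fl/fl;Meis2fl/fl;WT1-Cre, so that deletion of both Meis genes is restricted to cells in which WT1-Cre has been active, and other cells of the layer keep them. The control embryos are labelled wild-type, and the sources used here do not state whether they carried floxed alleles or Cre. Each group held 3 libraries (dKO 1, 2 and 3, and control 1, 2 and 4), and every library came from 2 pooled hearts, so that the spread given is that between pools.

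A laminin molecule is assembled in the cell from an alpha, a beta and a gamma chain, and the alpha chain sets which receptors it binds. As background, Lama3 and Lama5 are the alpha chains of epithelial basement membranes, Lama4 is the chain of blood vessels, where Lama5 also occurs, and Lama2 that of muscle and peripheral nerve, while Lamb1, Lamb2 and Lamc1 pair with several alpha chains. Nephronectin sits in epithelial basement membranes and is a ligand of the integrin formed by Itga8 and Itgb1, best known from kidney development. The epicardium is a mesothelium, an epithelial sheet with a basement membrane that separates it from the subepicardial mesenchyme and vessels.

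Values are the authors' normalised read counts, and the libraries held 13146322 to 20635676 recovered reads. Meis2, a targeted gene, fell to 41.3 ± 5.59 in dKO pools, against 78.3 ± 13 in control pools (SD, n = 3 each; log2 change -0.90, limma adjusted p = 0.00352). Meis1 was 65.9 ± 7.82 in dKO pools and 77.8 ± 24.8 in control pools (SD, n = 3 each; limma adjusted p = 0.521); both values cover all exons and not the deleted part alone. The tissue label was checked against marker lists. All 13 epicardial and mesothelial markers were measured in every library, with summed levels of 248 to 369.9 in dKO pools and 2232 to 3349 in control pools. The libraries also held other heart cells: the 14 cardiomyocyte markers summed to 31047 to 33794 in dKO pools and 5879.8 to 13152 in control pools, and the 12 endothelial markers to 1521 to 1699 in dKO pools and 1258 to 1943 in control pools. In such bulk samples fewer cells of a type and less RNA per cell cannot be told apart.

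The Npnt promoter is shown because Npnt changed most among the 8 genes, and that of Lama2 because it alone held the core hexamer that Meis proteins recognise. Promoter sequences came from RefSeq on GRCm38.p6, where those of Lama2, Lama5, Lamb1, Lamb2 and Npnt, 5 of the 8 genes, were read. The 250 bases before the first listed start of Npnt (chr3:132950292-132950541, minus strand) and the 250 before the RefSeq start of Lama2 (chr10:27616943-27617192, minus strand) follow, 5′ to 3′. The GENCODE M21 annotation places the start of Lama2 further upstream, at 27619758, so this Lama2 window lies within the gene as annotated there. Capitals mark the GC box GGGCGG on either strand in the Npnt promoter, and TGACAG in that of Lama2.
Npnt: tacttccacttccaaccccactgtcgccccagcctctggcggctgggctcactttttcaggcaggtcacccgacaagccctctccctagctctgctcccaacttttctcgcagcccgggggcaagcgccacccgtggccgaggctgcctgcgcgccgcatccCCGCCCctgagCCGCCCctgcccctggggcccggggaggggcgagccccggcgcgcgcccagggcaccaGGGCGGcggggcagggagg
Lama2: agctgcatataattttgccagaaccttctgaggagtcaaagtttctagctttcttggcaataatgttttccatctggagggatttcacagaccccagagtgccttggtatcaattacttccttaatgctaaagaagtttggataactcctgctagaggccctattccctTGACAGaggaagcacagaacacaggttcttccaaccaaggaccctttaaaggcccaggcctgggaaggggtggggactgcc

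TGACAG was searched on both strands. It was present in the Lama2 window, starting 81 bases before the RefSeq start. That was 1 of the 5 genes, against 15.9% of 32851 promoter windows of the same length. The window of the first listed Npnt start held 3 GC boxes and 74% G and C. That of a second listed Npnt start held 0 GC boxes and 69.6% G and C. Of the 5 genes, 3 had a GC box (Npnt, Lama5 and Lamb1), against 32.7% of all windows. TATAAA was in 0 of the 5 genes and in 12.4% of all windows. These are matches of letters and not binding sites.

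The 8 genes divided by chain class (dot plot of the 8 genes by library). Npnt, Lama3 and Lama5, the epithelial group, were lower in the dKO pools, while Lama2, Lama4, Lamb1, Lamb2 and Lamc1 did not pass the test, with log2 changes between 0.22 and 0.35. Of the 8 genes, 3 fell and 0 rose (limma on log2 of 1 plus the value, Benjamini-Hochberg adjustment over all genes, threshold 0.05); 22.0% of all genes tested were called, 12.2% lower and 9.81% higher. edgeR on the recovered reads called the same number of the 8, all lower, and 20.3% of all genes. At an unadjusted limma p under 0.05, 3 of the 8 passed, again with 0 higher, against 35.1% of all genes. With the number in the library title as a replicate block, Npnt and Lama3 passed and Lama5 did not, against 9.35% of all genes. Numbers 3 and 4 each occur in 1 library, so that fit takes the change from dKO 1 and 2 against control 1 and 2. The dKO and control libraries did not overlap for 4 of the 8, Lamb1 being the fourth, against 40.4% of all genes. Of the 8, 2 fell at least 4-fold, against 1.93% of all genes. The median log2 change of the 8 was 0.23, and that of all genes was 0.00.

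**Figure D1:**
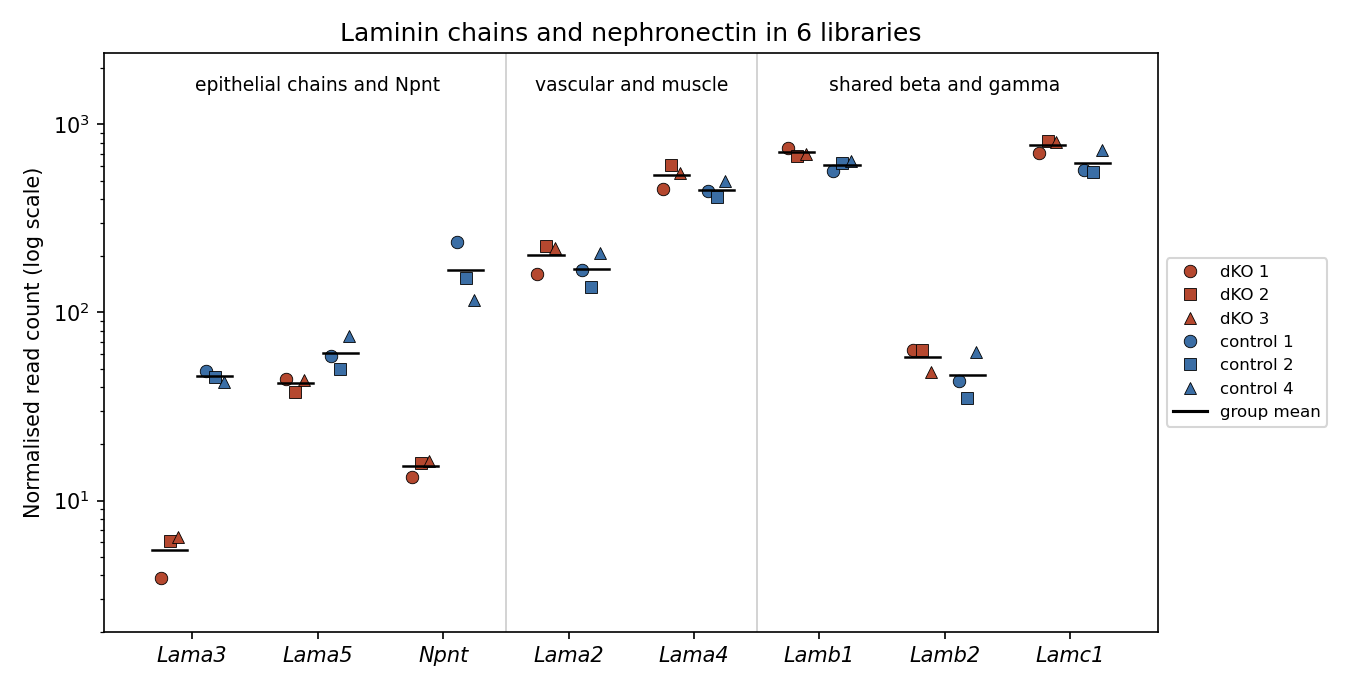
Normalised read counts (log scale) of the 8 genes, with 1 point per library, dKO left of control, and a bar at each group mean. Npnt is at 13.3 to 16.3 in dKO and 117 to 237 in control libraries, while Lama4 and Lama2 overlap between the groups.

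Npnt had the largest change of the 8. The gene (ENSMUSG00000040998, GRCm38 chromosome 3, 132881745 to 132950291, minus strand) had 13.3, 15.9 and 16.3 in dKO 1, 2 and 3, against 237, 152 and 117 in control 1, 2 and 4. Every dKO library was far below every control library, and control 1 was the highest control. The dKO mean was 8.99% of the control mean (15.2 ± 1.65 in dKO and 169 ± 61.8 in control pools, SD, n = 3 each). Npnt changed by -3.33 ± 0.23 (log2, SE; limma adjusted p = 1.2e-05), and -3.48 with edgeR on the recovered reads (edgeR adjusted p = 5.2e-05). Behind these values lay 213 to 335 reads per dKO library and 1840 to 3839 per control library. Without control 1, the library in which the epicardial markers were also highest, the log2 change was -3.06 (limma adjusted p = 2.1e-06).

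Lama3 encodes the alpha chain of the laminin that anchors epithelia through hemidesmosomes. Lama3 (ENSMUSG00000024421, chromosome 18) had 3.89, 6.1 and 6.41 in dKO 1, 2 and 3, against 49.1, 45.4 and 42.6 in control 1, 2 and 4. The groups did not overlap, and the control libraries lay close together. The dKO mean of 5.46 ± 1.38 was 12% of the control mean of 45.7 ± 3.29 (SD, n = 3 each). On the log2 scale Lama3 changed by -2.87 ± 0.21 (SE; limma adjusted p = 1.6e-05), and -3.07 with edgeR (adjusted p = 4.3e-05). The gene rested on 62, 82 and 131 reads in the dKO libraries. Exonic bases of Lama3 shared with an opposite-strand gene came to 1.83%, and the library kit is not stated to keep strand.

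Lama5, the other epithelial alpha chain, changed far less. Lama5 (ENSMUSG00000015647, chromosome 2, 180176373 to 180225859) had 44.5, 37.7 and 43.8 in dKO 1, 2 and 3, against 59, 49.9 and 74.7 in control 1, 2 and 4. The dKO libraries were all below the control libraries, by a small margin from control 2. Lama5 changed by -0.52 on the log2 scale (SE 0.16), with a 95% interval from -0.88 to -0.15 (limma adjusted p = 0.0474). This call was near the threshold and rested on single libraries: it passed in 1 of 6 fits that each left out 1 library (without control 2, limma adjusted p = 0.0252). In the other 5 fits, without control 1, control 4, dKO 1, dKO 2 or dKO 3, the adjusted p was 0.0664, 0.149, 0.0689, 0.155 and 0.099.

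The vascular and muscle alpha chains were not lower. Lama4 (ENSMUSG00000019846, chromosome 10, 38965515 to 39110188) had 453, 606 and 549 in dKO 1, 2 and 3, against 441, 409 and 502 in control 1, 2 and 4. The groups overlapped, since dKO 1 was below control 4. The log2 change of Lama4 was 0.24 with a 95% interval of -0.09 to 0.58 (limma adjusted p = 0.275). Lama2, whose loss causes a muscular dystrophy with peripheral nerve involvement, lies on the same chromosome (ENSMUSG00000019899, 26980036 to 27619758). It had 161, 226 and 219 in dKO 1, 2 and 3, against 168, 137 and 206 in control 1, 2 and 4. Here too dKO 1 was low and control 4 high, so the groups overlapped. The Lama2 change was 0.25 with a 95% interval of -0.15 to 0.64 (limma adjusted p = 0.361). The 3 measured Schwann and neuronal markers, Erbb3 among them, markers of the peripheral nerve in which Lama2 is also found, summed to 20.8 to 26.5 in dKO pools and 30.6 to 37.7 in control pools. The other 7 of that list of 10, Sox10 among them, were not analysed here.

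Lamb1, Lamb2 and Lamc1, the shared chains, were slightly higher on average and did not pass. Lamb1 (ENSMUSG00000002900, chromosome 12, 31265234 to 31329644) had 751, 683 and 697 in dKO 1, 2 and 3, against 565, 627 and 640.1 in control 1, 2 and 4. Each dKO library was above each control library, yet the change was 0.22 with a 95% interval of -0.07 to 0.51 (limma adjusted p = 0.262). Lamc1 (ENSMUSG00000026478, chromosome 1, 153218922 to 153332786) had 708, 815 and 810.2 in dKO 1, 2 and 3, against 575, 558 and 734 in control 1, 2 and 4. Control 4 was above dKO 1, and the change was 0.33 with a 95% interval of -0.01 to 0.67 (limma adjusted p = 0.153). Lamb2, a chain of neuromuscular and glomerular basement membranes, lies on chromosome 9 (ENSMUSG00000052911, 108479736 to 108490530). It had 63.4, 63 and 48.5 in dKO 1, 2 and 3, against 43, 34.9 and 61.9 in control 1, 2 and 4. The groups overlapped at dKO 3 and control 4, with a change of 0.35 and a 95% interval of -0.11 to 0.80 (limma adjusted p = 0.261). The intervals of these 5 chains bound a rise at 0.80 and a fall at -0.15 on the log2 scale. For Lamb1 the exact permutation p was 0.1, the smallest that 3 against 3 libraries allow.

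The difference between epithelial and vascular or muscle chains was examined within libraries, where scaling cancels but for the 1 added to each value. The log2 ratio of Lama3 over Lama4 was -6.54, -6.42 and -6.21 in dKO 1, 2 and 3, against -3.14, -3.14 and -3.53 in control 1, 2 and 4. It was lower by 3.12 in the dKO pools than in the control pools (difference -3.12, SE 0.16), with no overlap. Lama3 over Lama2 differed by as much (-4.98 ± 0.08 in dKO and -1.86 ± 0.35 in control pools, SD, n = 3 each; difference -3.12, SE 0.21). The log2 ratio of Lama5 over Lama4 was -3.32, -3.97 and -3.62 in dKO 1, 2 and 3, against -2.88, -3.01 and -2.73 in control 1, 2 and 4. Its difference was -0.76 (SE 0.21), and that of Lama5 over Lama2 was also -0.76 (SE 0.21). For all 4 ratios the groups did not overlap and the exact two-sided permutation test gave p = 0.1, the smallest possible, so that no ratio could pass 0.05 (adjusted over the 4 ratios, p = 0.1 each). Without single libraries the Lama3 differences ran from -3.32 to -2.98 and the Lama5 differences from -0.96 to -0.59. The Lama3 differences also depended on the added value: each was -3.28 with 0.25 added and -2.64 with 4 added. For Lama5 each was -0.77 with 0.25 and -0.73 with 4.

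Levels of different genes were compared per kilobase of the longest annotated protein-coding transcript. In dKO pools the order of these levels was Lamb1 (123 ± 6.21), Lamc1 (102 ± 7.92), Lama4 (88.6 ± 12.8), Lama2 (21 ± 3.71), Lamb2 (10.4 ± 1.51), Lama5 (3.69 ± 0.329), Npnt (3.28 ± 0.358) and Lama3 (0.518 ± 0.13; SD, n = 3). In control pools it was Lamb1 (106 ± 6.96), Lamc1 (81.7 ± 12.8), Lama4 (74.5 ± 7.86), Npnt (36.5 ± 13.4), Lama2 (17.7 ± 3.59), Lamb2 (8.28 ± 2.46), Lama5 (5.37 ± 1.1) and Lama3 (4.33 ± 0.312; SD, n = 3). Npnt stood above Lama2 in control pools and below Lama5 in dKO pools. Some neighbours were within their spread: Lamc1 and Lama4 in both groups, Lama5 and Npnt in dKO pools, and Lama5 and Lama3 in control pools. With the union of all exons as length, Lamc1 (94 in dKO and 75.3 in control pools) stood above Lamb1 (71.6 in dKO and 61.6 in control pools), so the order of these depends on the length used.

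The make-up of the alpha chains follows from the same levels (bars of alpha chain composition). Lama4 made up 77.6% ± 0.918 of the summed level of the 5 alpha chains in dKO pools and 73.1% ± 1.2 in control pools (SD, n = 3 each; Lama1 included in the sum). The share of Lama2 was 18.3% ± 0.887 in dKO pools and 17.3% ± 1.46 in control pools. Lama3 held 0.383%, 0.452% and 0.512% in dKO 1, 2 and 3, against 4.65%, 4.74% and 3.5% in control 1, 2 and 4. Lama5 held 4.07%, 2.59% and 3.25% in dKO 1, 2 and 3, against 5.17%, 4.82% and 5.7% in control 1, 2 and 4. On this length both epithelial chains were minor in every library, and their shares were lower in every dKO library than in any control library. The summed alpha chain level was 1.12 ± 0.0816 times that of Lamc1 in dKO pools and 1.25 ± 0.0676 times in control pools. These shares count RNA per annotated length; with the union of exons the Lama3 share was 0.821% in dKO and 7.49% in control pools, and that of Lama5 6.14% in dKO and 9.28% in control pools. The Lama4 share was then 72.4% in dKO and 65% in control pools, and that of Lama2 20.1% in dKO and 18% in control pools.

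**Figure D2:**
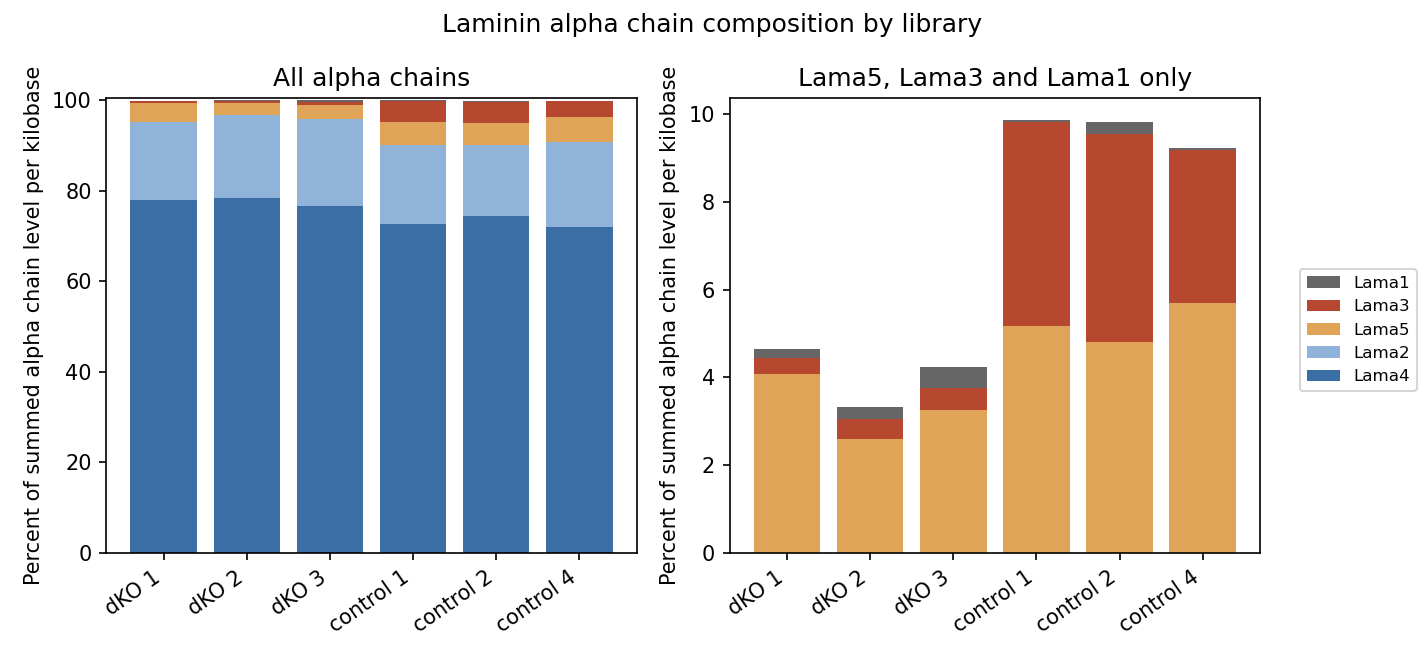
Share of each laminin alpha chain in the summed alpha chain level per kilobase (percent), 1 bar per library, dKO left of control; the right panel shows Lama5, Lama3 and Lama1 on an enlarged axis. Lama4 takes most of every bar, and the Lama3 part is under 1 percent in dKO libraries and 3.5% to 4.74% in control libraries.

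Lamb3, a beta chain that assembles with Lama3, moved in the same direction. It had 5.07, 2.85 and 3 in dKO 1, 2 and 3, against 19.1, 17.8 and 24.1 in control 1, 2 and 4. The groups did not overlap, and Lamb3 fell by 2.22 on the log2 scale (SE 0.25; limma adjusted p = 0.00026). When the mean of the cardiomyocyte markers was added to the model, Lamb3 did not pass (-2.59, limma adjusted p = 0.0838).

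Among other basement membrane genes (plot of log2 changes by gene), 4 of 24 rose and 7 fell, with a median log2 change of 0.06. This was 45.8% called, against 22.0% of all genes (9.81% higher and 12.2% lower). Collagen IV divided by chain: Col4a3 and Col4a4, chains of the collagen IV network of the kidney glomerulus, fell, and the abundant Col4a1 and Col4a2 did not pass. Col4a3 had 0.404, 0.777 and 0.463 in dKO 1, 2 and 3, against 25.8, 22.8 and 17.5 in control 1, 2 and 4 (log2 change -3.89, and -5.42 with edgeR). It rested on 6, 10 and 9 reads in the dKO libraries. Col4a4 had 1.15, 1.07 and 0.95 in dKO 1, 2 and 3, against 40, 36 and 43 in control 1, 2 and 4 (-4.30, limma adjusted p = 2.1e-06). The groups were apart for both genes, which lie side by side. Col4a1 had 1458, 1367 and 1242 in dKO 1, 2 and 3, against 837, 1055 and 1266 in control 1, 2 and 4 (0.38, limma adjusted p = 0.167), and Col4a5, which assembles with Col4a3 and Col4a4, averaged 222 ± 23 in dKO and 231 ± 18.9 in control pools (-0.06, limma adjusted p = 0.788).

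Nid1, which links laminin to collagen IV, had 556, 475 and 439 in dKO 1, 2 and 3, against 899, 881 and 941 in control 1, 2 and 4, and fell (log2 change -0.89, SE 0.14, limma adjusted p = 0.0016). Nid2, its homologue, averaged 217 in dKO and 332 in control pools and did not pass (-0.55, limma adjusted p = 0.0985). Sparc, a matricellular collagen-binding protein gene, fell (-1.28), as did Smoc2, of the same family (-2.52, limma adjusted p = 5.3e-06), and Fras1 (-1.85). Among the genes that rose were Hspg2, which encodes perlecan (0.75, limma adjusted p = 0.0148), the hemicentin gene Hmcn1 (0.77) and Frem1 (1.25, limma adjusted p = 0.00016).

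Nephronectin has relatives and partners in epithelial basement membranes. Of 8 measured, 1 rose and 4 fell (62.5% called, against 22.0% of all genes). Egfl6, the closest relative of Npnt, had 3.14, 6.4 and 5.43 in dKO 1, 2 and 3, against 106, 58.8 and 44.3 in control 1, 2 and 4. As for Npnt, control 1 was the highest and all dKO libraries were low (log2 change -3.51, SE 0.32, limma adjusted p = 7e-05). Egflam, which encodes the dystroglycan ligand pikachurin, fell (-1.61, limma adjusted p = 0.00029). The Fras1-related matrix gene Frem3 had 0.342, 0.111 and 0.219 in dKO 1, 2 and 3, against 21.7, 13.9 and 20.1 in control 1, 2 and 4; it rested on 5, 1 and 4 reads in the dKO libraries. Fras1 and Frem1, counted above as basement membrane genes, moved in opposite directions. Itga8, which forms the nephronectin receptor with Itgb1, did not pass, at 83.8, 108 and 82.7 in dKO 1, 2 and 3, against 92.5, 91.3 and 119.5 in control 1, 2 and 4 (-0.14, 95% interval -0.49 to 0.20, limma adjusted p = 0.548).

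Of 11 laminin and nephronectin receptor genes, 2 fell and 0 rose by the limma test, with a median log2 change of 0.01. The share called, 18.2%, was near the 22.0% of all genes. Itga3, an integrin subunit for epithelial laminins, had 17.9, 19.4 and 25.1 in dKO 1, 2 and 3, against 52.1, 30.4 and 48.2 in control 1, 2 and 4 (-1.01, limma adjusted p = 0.009). Itga7, an integrin subunit of muscle, had 11, 7.43 and 4.6 in dKO 1, 2 and 3, against 18.3, 23.6 and 39.7 in control 1, 2 and 4 (-1.70, limma adjusted p = 0.00532). Both were lower in each dKO library, although Itga3 binds the laminins of epithelia and Itga7 those of muscle. The abundant receptor genes did not pass: Itgb1 averaged 1508 in dKO and 1435 in control pools, Itga6 209 in dKO and 196 in control pools, and Dag1, which encodes dystroglycan, 346 in dKO and 304 in control pools. When the mean cardiomyocyte marker level was in the model, 0 of the 11 and 1.46% of all genes passed, with log2 changes of -3.08 for Itga7 (limma adjusted p = 0.0567) and -0.35 for Itga3 (limma adjusted p = 0.865).

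The genes of the dystrophin complex and of dystroglycan glycosylation, which tie Lama2-containing laminin to the cell, had 8 of 24 members higher and 3 lower (median log2 change 0.14). That made 45.8% called, against 22.0% of all genes (9.81% higher and 12.2% lower). The members with the smallest p were Dtna, a dystrobrevin gene, which rose to 27.1 in dKO pools, against 8.48 in control pools (1.56, limma adjusted p = 0.0005), Sntb1, a syntrophin gene (37.6 in dKO and 17.6 in control pools; 1.07, limma adjusted p = 0.00178), and another syntrophin gene, Sntb2, which fell (55 in dKO and 121 in control pools; -1.08, limma adjusted p = 0.00306). With the mean cardiomyocyte marker level in the model, 0 of the 24 and 1.46% of all genes passed. In that fit the log2 change was 1.33 for Dtna (limma adjusted p = 0.333), 0.50 for Sntb1 (limma adjusted p = 0.722) and 0.03 for Sntb2 (limma adjusted p = 0.984).

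**Figure D3:**
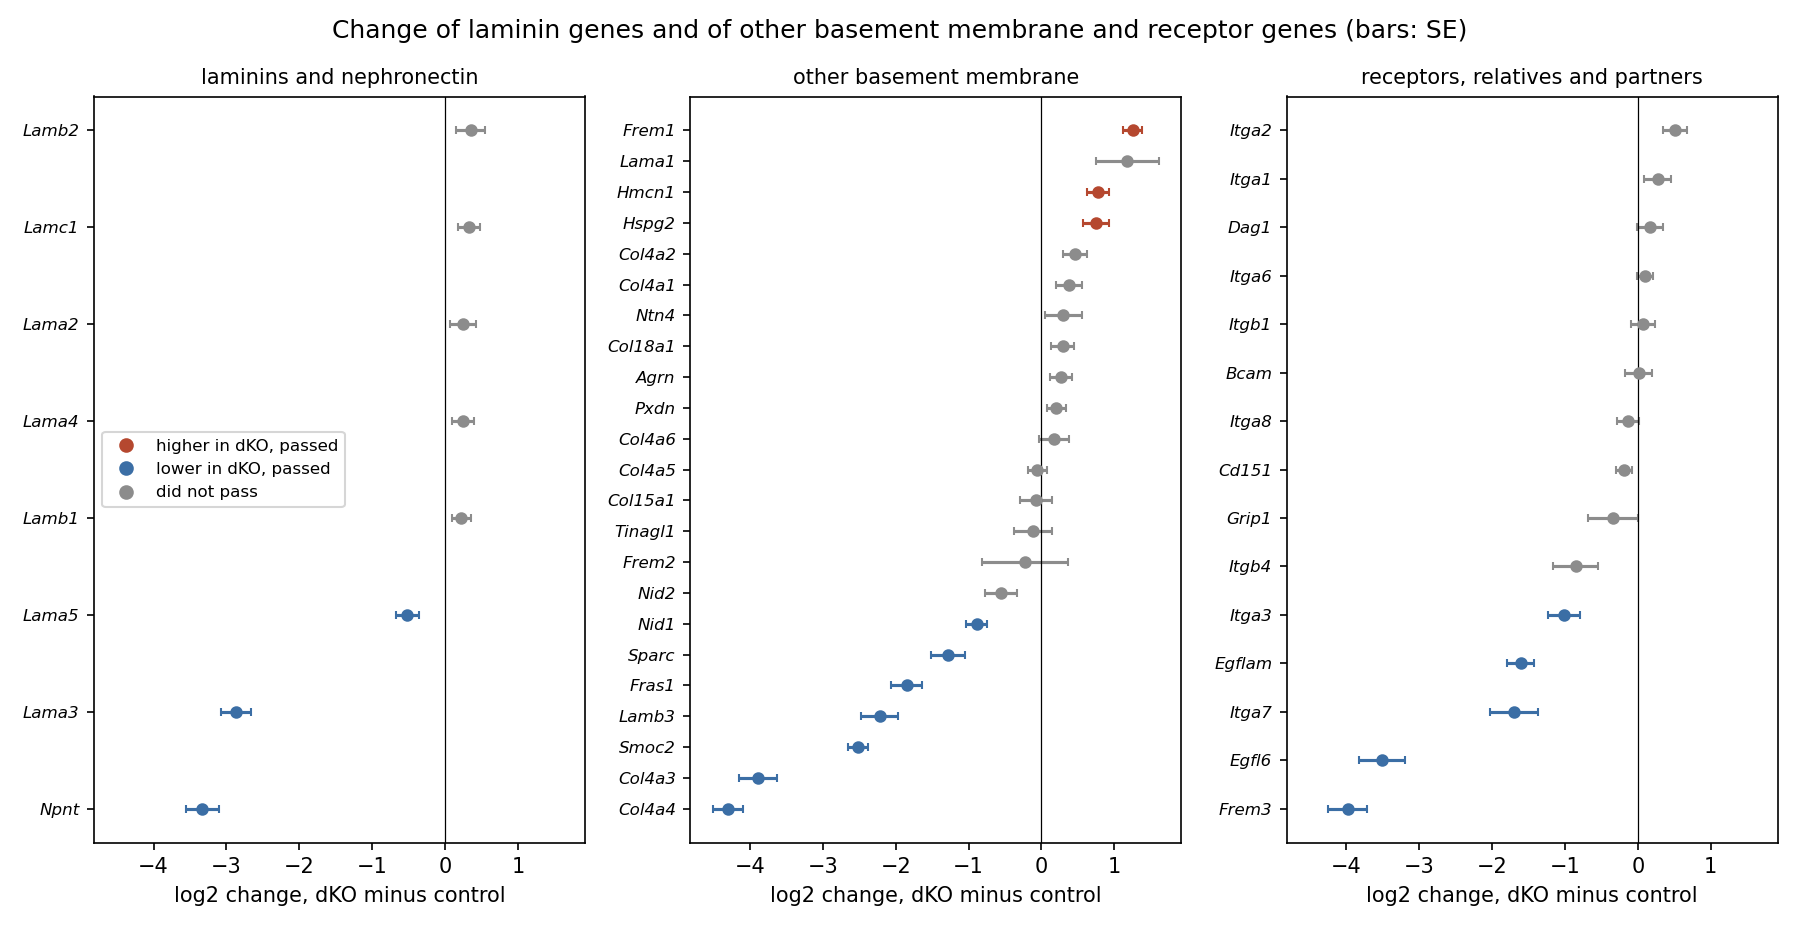
Log2 change (dKO minus control, with SE bars from limma) of the 8 laminin and nephronectin genes, of other basement membrane genes, and of receptors, relatives and partners not among those. Npnt (-3.33), Lama3 (-2.87), Egfl6 (-3.51), Frem3 (-3.98), Col4a3 (-3.89) and Col4a4 (-4.30) are far to the left, while most other chains lie near 0.

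Markers of cell types moved with these genes (dot plot of laminin genes beside marker lists). All 13 epicardial and mesothelial markers fell, with a median log2 change of -2.97, among them Lrrn4, Rspo1 and Upk1b. Of all genes, 12.2% were called lower and 9.81% higher. Their mean log2 level was 3.66, 3.91 and 4.22 in dKO 1, 2 and 3, against 7.40, 7.04 and 6.93 in control 1, 2 and 4. With that mean as a covariate neither Npnt (0.42, limma adjusted p = 0.952) nor Lama3 (-0.42, limma adjusted p = 0.959) passed, and 1 gene of the whole table (0.00687%) did; this mean did not overlap between the genotypes. All 14 cardiomyocyte markers rose, with a mean log2 level of 10.39, 10.23 and 10.22 in dKO 1, 2 and 3, against 7.78, 8.83 and 8.95 in control 1, 2 and 4. With the cardiomyocyte mean as a covariate both Npnt (-1.95, limma adjusted p = 0.016) and Lama3 (-2.49, limma adjusted p = 0.0406) passed, and 1.46% of all genes did, while Lama5 did not (-0.69, limma adjusted p = 0.584). The cardiomyocyte mean did not overlap between the genotypes either, so neither covariate can be separated from genotype in 6 libraries.

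All 9 fibroblast markers fell (median -1.40) and 7 of 9 mural markers rose (median 0.99), and their part in the values of the laminin genes was not tested. Of the 12 endothelial markers 1 fell (Tek) and 0 rose, with a median of 0.12, and of 7 lymphatic markers 6 fell (median -3.42). The endothelial mean log2 level was 6.81, 6.64 and 6.53 in dKO 1, 2 and 3, against 6.30, 6.72 and 7.02 in control 1, 2 and 4, and the groups overlapped. Of 7 macrophage markers 2 fell (median -0.70), of 6 erythroid markers 0 changed by the limma test (median 0.29), and of the 3 Schwann and neuronal markers 0 did (median -0.58). These counts stand beside the 12.2% of all genes that fell and the 9.81% that rose.

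**Figure D4:**
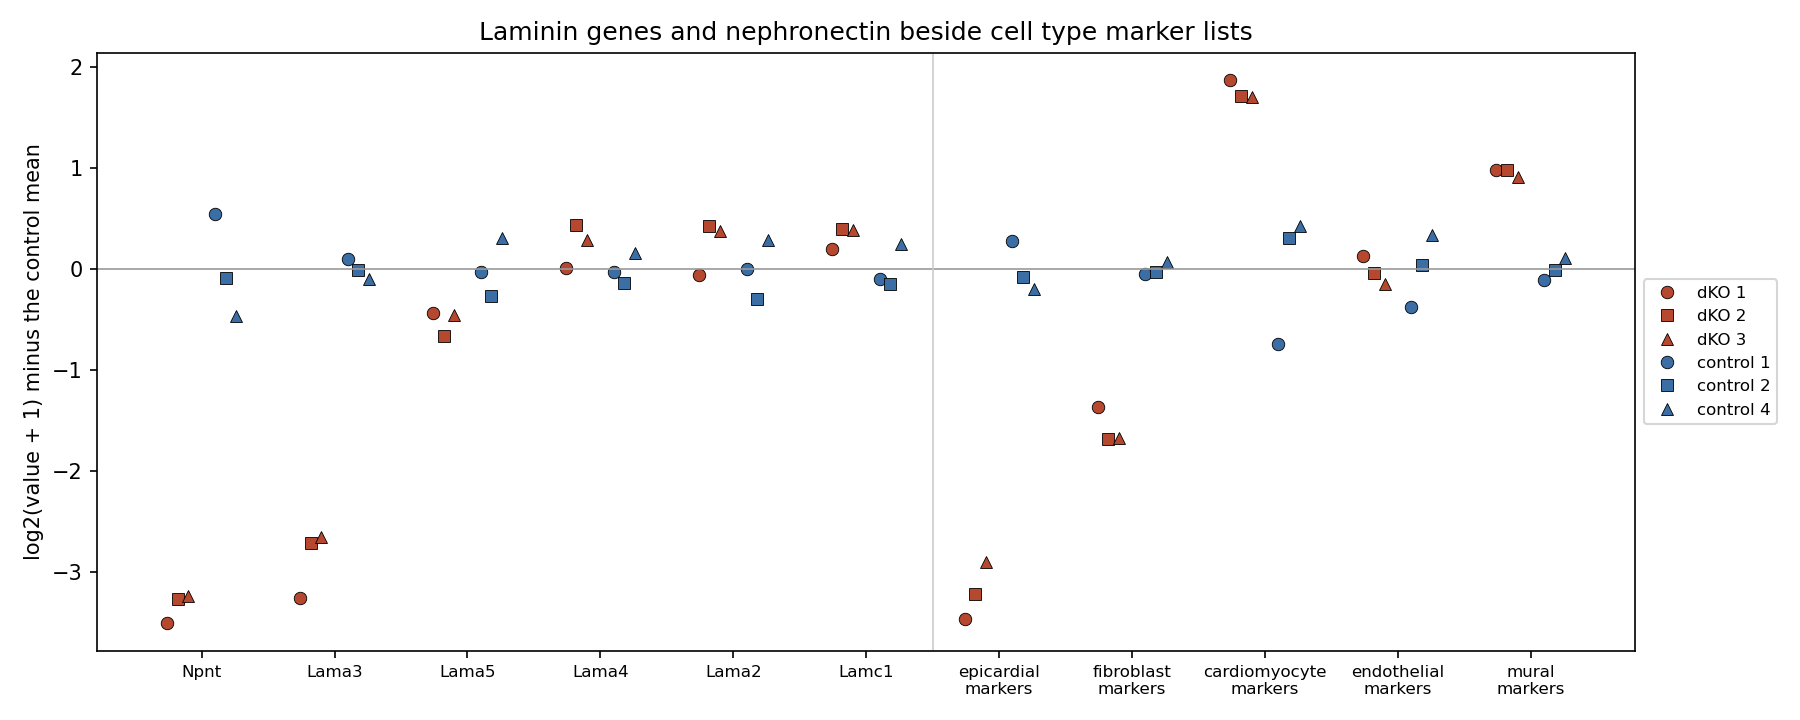
Log2(value + 1) minus the control mean, 1 point per library, dKO left of control, for 6 of the 8 genes (left) and the mean of 5 marker lists (right). Npnt and Lama3 lie near the epicardial markers, about 3 units below the control mean in dKO libraries, and Lama4, Lama2 and Lamc1 lie near 0 as do the endothelial markers.

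For the gene with the smallest p among those higher in dKO pools (Lamc1) and among those lower (Npnt), the genes with the most similar log2 levels over the 6 libraries were looked up among 10941 genes of mean level 5 or more. Npnt was most like Serpinb1a (Pearson r = 0.9991), Tbrg1 (0.9985) and Maf (0.9982). Serpinb1a, a protease inhibitor gene, had 9.04, 10.5 and 10.3 in dKO 1, 2 and 3, against 69.4, 48.2 and 38.4 in control 1, 2 and 4. Lamc1 was most like Cbx2 (0.9973), Ipp (0.9928) and Plxnb1 (0.9927). For Npnt the libraries fall into separate genotype groups, while for Lamc1 control 4 (734) was above dKO 1 (708). Values of r this high over 6 libraries describe similar log2 levels only. The order within a group could differ: among dKO libraries Npnt was highest in dKO 3 and Serpinb1a in dKO 2.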

How the data were processed

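Per the submitters' processing notes, cutadapt and RSEM 1.3.1 were used on GRCm38; these sources name no annotation release, normalization or gene filter. The authors deposited 1 table of a normalised signal for 14549 genes in 6 libraries. Divided by a constant per library, all 87294 came out as whole reads plus 0.5 (tolerance 0.01 reads), which gave the reads back. limma 3.58.1 (R 4.3.3, variance trend) compared dKO with control on log2 of 1 plus the value, where changes of low genes are understated. The filter, a value of 1 in 3 libraries, kept all 14549. Two-sided p-values were adjusted over all genes (Benjamini-Hochberg, threshold 0.05); log2 changes are dKO minus control, and SE is that of the fit. edgeR 4.0.16 called 2956 genes (20.3%) on the recovered reads, and DESeq2 1.42.0 was an alternative. Exact permutation tests used scipy 1.17.1. A score is the mean log2 value of a marker list. The fit was tested on simulated data.

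Other alternatives were the pseudocount, filters, variance trend, scaling, a block by title number, marker scores as covariates and left-out libraries. The p-values measure spread between pools and not between hearts. Identifiers, lengths and overlaps came from GENCODE M21 (GRCm38), where 14530 of 14549 identifiers were found. The genes and lists were chosen with earlier results of these data known. Named were the 8 genes, Meis1 and Meis2, any measured gene of the basement membrane, receptor and nephronectin partner lists, of other lists the 3 members with the smallest p (or, with none past the threshold, those of highest mean), and the 3 genes most like a member. Lamc3, Smoc1 and Gdnf had no row and were not analysed. Some genes of these lists are counted but not reported here by name.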

Additional observations from a re-analysis of the deposited data

How the results depend on the processing

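The falls of Npnt and Lama3 passed under 18 of 19 alternatives each and that of Lama5 under 9 of 19. The alternative without a filter is counted among the 19 and equals the main fit, since the filter removed no gene. Leaving out single libraries gave 2167 to 2725 called genes (3205 with all), 2 to 3 of the 8 among them. Title numbers 1 and 2 are shared by the groups without a stated pairing; deviations of same-numbered libraries correlated at -0.18 and -0.20. The replicate block leaves 1 residual degree of freedom and takes the change from dKO 1 and 2 against control 1 and 2 alone. With it 1360 genes passed (9.35%), and Npnt (-3.62) and Lama3 (-3.03) did, but Lama5 (-0.40, limma adjusted p = 0.386) did not. Lama5 also missed the threshold without a variance trend (limma adjusted p = 0.0979) and with quantile normalization (limma adjusted p = 0.0555). With the cardiomyocyte marker mean in the model 212 genes passed and Lamb1 was at -0.07. With the epicardial score, an alternative chosen after seeing the data, 1 gene and 0 of the 8 passed, with Lamb1 at -0.66, Lamb2 at -1.74 and Npnt at 0.42. The cause of these changes was not tested. Scaling moved the median of all genes by at most 0.04 on the log2 scale. The 95% intervals limit what 3 pools per group could show for the chains that did not pass.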

Other observations

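Control 1 stood above the other controls in several basement membrane genes. Frem2, an epithelial basement membrane gene related to Fras1, had 41.2, 40.2 and 52.3 in dKO 1, 2 and 3, against 188, 24.7 and 30.3 in control 1, 2 and 4, and did not pass (limma adjusted p = 0.814). Nid2 had 209.8, 213 and 228 in dKO 1, 2 and 3, against 470.5, 293 and 233 in control 1, 2 and 4. Lama1, an early embryonic laminin chain, was near its lower limit, with 28, 46 and 111 reads in dKO 1, 2 and 3, against 9, 36 and 4 in control 1, 2 and 4 (log2 change 1.18, limma adjusted p = 0.079). Itgb4, which pairs with Itga6 to bind epithelial laminin, had 4, 3 and 15 reads in dKO 1, 2 and 3, against 30, 20 and 23 in control 1, 2 and 4 (-0.85, limma adjusted p = 0.0765).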
